A study of Mus musculus with 6 samples.

Results

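The genes of the Six-family and the Eya-family encode partner proteins, and the accessible chromatin around 7 of them was compared between nephron progenitor cells of E14.5 mouse embryos and of newborn (P0) mice. The genes were Six2, Six4, Six5, Eya1, Eya2, Eya3 and Eya4. A region of the deposited table belonged to a gene if its midpoint lay within the gene body or no more than 50 kb from it. This rule found 26 of the 43523 distinct regions, with 5 at Six2, 3 at Six4, 5 at Six5, 5 at Eya1, 1 at Eya2, 4 at Eya3 and 3 at Eya4. The regions of each gene are numbered here from the lowest coordinate upward. Accessibility was measured by ATAC-seq, in which the transposase Tn5 cuts open DNA and tags it for sequencing, so that more reads are counted where chromatin is more open. Both stages came from mice of the CD1 strain, with no treatment and no genetic change named, and gave 3 libraries each. Every library was made from 50000 cells taken from the pooled kidneys of a single litter, after enrichment on beads with antibodies to the surface integrin Itga8. Positions are those of build mm10.

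Proteins of the Six-family are transcription factors that bind DNA through a homeodomain. Eya proteins do not bind DNA themselves. They are carried to it by Six-family proteins, where they act as co-activators, and they are also protein phosphatases. In the kidney Six2 holds the progenitor pool of the cap mesenchyme in an undifferentiated, self-renewing state, and Eya1 is required for the formation of the kidney and lies upstream of Six2. The pool is used up around birth, when the remaining progenitors differentiate.

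The sequences around the start sites show what lay under the promoter regions described next. The RefSeq promoter table (build GRCm38.p6, the assembly that mm10 denotes) held 5 of the 7 genes, and gave 250 bases before and 50 bases from the start site of each. They are written 5′ to 3′ on the strand of the gene, and capitals mark matches on either strand to any of 4 motifs. These are the TATA box, searched as TATAAA, the GC box, searched as GGGCGG, the CCAAT box, and TCAGGTT, a site of the MEF3 type that Six-family proteins are known to bind. Six4 and Eya4 had 2 entries each, with starts that lie close together, of which 1 is shown. The first 4 sequences lay wholly inside a region of the table, and the last, from Six4, overlapped none. They are Six2 (chr17:85688205-85688504, minus strand), Six5 (chr7:19094294-19094593, plus strand), Eya3 (chr4:132638796-132639095, plus strand), Eya4 (chr10:23349894-23350193, minus strand) and Six4 (chr12:73113376-73113675, minus strand).
Six2: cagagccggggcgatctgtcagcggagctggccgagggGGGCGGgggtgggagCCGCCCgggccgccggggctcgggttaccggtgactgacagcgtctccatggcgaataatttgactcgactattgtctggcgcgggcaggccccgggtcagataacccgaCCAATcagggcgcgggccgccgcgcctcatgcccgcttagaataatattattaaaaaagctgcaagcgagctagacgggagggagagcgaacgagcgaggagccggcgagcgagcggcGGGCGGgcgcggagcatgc
Six5: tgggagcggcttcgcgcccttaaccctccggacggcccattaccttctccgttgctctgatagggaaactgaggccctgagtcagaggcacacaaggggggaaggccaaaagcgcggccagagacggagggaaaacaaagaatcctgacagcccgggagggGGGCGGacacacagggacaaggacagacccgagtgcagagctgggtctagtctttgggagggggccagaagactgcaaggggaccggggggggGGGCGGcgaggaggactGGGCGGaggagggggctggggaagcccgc
Eya3: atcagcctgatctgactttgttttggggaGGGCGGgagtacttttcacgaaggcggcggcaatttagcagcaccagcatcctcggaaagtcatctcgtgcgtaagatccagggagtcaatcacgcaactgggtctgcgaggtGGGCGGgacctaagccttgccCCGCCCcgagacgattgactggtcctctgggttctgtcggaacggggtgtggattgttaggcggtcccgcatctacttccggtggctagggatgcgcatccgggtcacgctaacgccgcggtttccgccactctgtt
Eya4: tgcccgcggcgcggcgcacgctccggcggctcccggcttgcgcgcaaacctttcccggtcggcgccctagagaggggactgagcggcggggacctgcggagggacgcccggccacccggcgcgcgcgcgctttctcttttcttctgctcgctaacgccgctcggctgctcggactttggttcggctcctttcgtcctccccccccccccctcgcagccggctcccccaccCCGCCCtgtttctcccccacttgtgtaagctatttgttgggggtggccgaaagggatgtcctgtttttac
Six4: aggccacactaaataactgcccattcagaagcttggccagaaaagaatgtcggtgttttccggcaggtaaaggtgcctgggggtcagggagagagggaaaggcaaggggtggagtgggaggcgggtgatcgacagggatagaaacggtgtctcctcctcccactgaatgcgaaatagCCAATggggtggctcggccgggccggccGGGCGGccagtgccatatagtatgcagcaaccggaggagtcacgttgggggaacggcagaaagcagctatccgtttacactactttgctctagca

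All 5 sequences held a GC box, with 3 matches each at Six2, Six5 and Eya3 and 1 each at Eya4 and Six4, where 35.7% of the 32851 promoters in the RefSeq table held at least 1. Of these promoters 58.3% overlapped no listed region, and the share among the overlapping ones alone was not computed. A CCAAT box stood in the promoters of Six2 and Six4, against 37.4% of all promoters. None of the 5 held TATAAA or TCAGGTT, which were found in 13.6% and 4.07% of all promoters. A match here is a run of letters and says nothing of binding, and a missing one says only that those letters are not in the window. GC content and the number of CpG were 67.3% and 37 for Six2, 66.0% and 17 for Six5, 59.3% and 25 for Eya3 and 69.3% and 36 for Eya4. The Six4 promoter, outside the listed regions, had 57.3% and 15, close to Eya3 in the former and to Six5 in the latter. The 13685 promoters that overlapped a listed region had a median GC content of 61.3% and 21 CpG, and the 19166 that did not overlap one had 48.0% and 3 CpG.

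Accessibility changed in 2 of the 26 regions, both at Eya1 and both lower at P0. An intragenic region fell to a level 2.69 times lower and a region upstream of the gene to a level 1.84 times lower. The upstream region lost its call when E14.5 replicate 3 or P0 replicate 1 was left out. No region of Six2, Six4, Six5, Eya2, Eya3 or Eya4 passed the test. A region was called changed at a Benjamini-Hochberg adjusted p under 0.05 over all 43523 regions, in edgeR's quasi-likelihood test. Of all regions tested, 4.73% were called, 2.94% with the lower level at P0 and 1.79% with the higher. With single libraries left out, the share called ran from 0.779% (without E14.5 replicate 3) to 6.86% (without E14.5 replicate 2). The 2 calls are 7.69% of the member regions, a count too small to be read as a difference from that background. At an unadjusted p under 0.05 there were 4 of 26, against 18.7% of all regions, and all 4 were at Eya1. At an adjusted p under 0.1 the count was again 2, against 8.02% of all regions. The libraries come from mixtures of cells, so fewer cells with an open region and a less open region in each cell cannot be told apart.

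**Figure D1:**
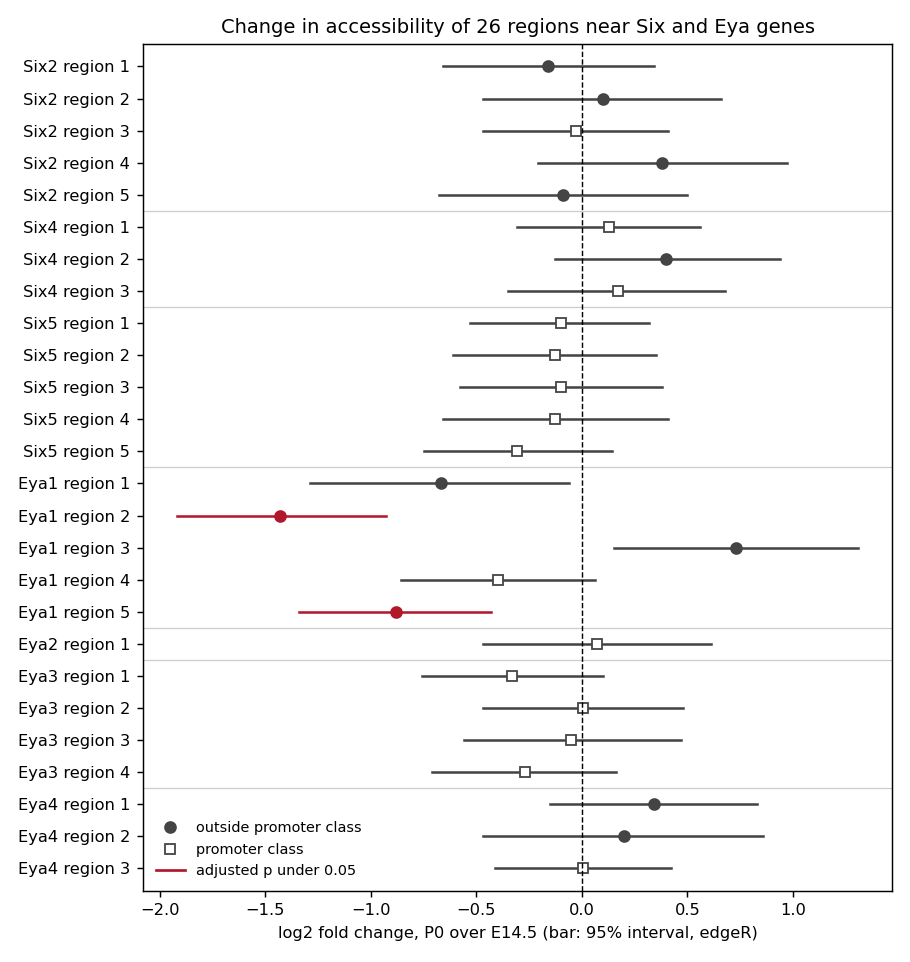
Log2 fold change of P0 over E14.5 (horizontal axis) for each of the 26 regions (rows, grouped by gene), with bars for the 95% interval of the edgeR fit. Open squares are promoter-class regions, filled circles are others, and the 2 regions in red, Eya1 regions 2 and 5, passed the threshold.

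The deposited annotation put 15 of the 26 in the promoter class, while 5 lay in a gene outside its exons and 6 were intergenic. Both called regions were outside the promoter class. Among all regions, 0.851% of the promoter class and 6.59% of the other classes were called, and 4.13% of the other classes were called as lower at P0. The median log2 fold change of the 26 regions was -0.07, beside 0.01 for all regions, -0.10 for all of the promoter class and 0.10 for the rest. In 7 of the 26 regions the stages did not overlap, against 24.2% of all regions. P0 was the lower stage in 5 of them and the higher in 2, against 12.4% and 11.8% of all regions. Counts in the member regions ran from 34 to 1081 per library, from libraries with 6492996 to 12292629 counts in regions. Levels are given in CPM, the count scaled to a common library size with edgeR's TMM factors.

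The gene body of Eya1 is on chromosome 1 from 14168953 to 14311035, with no other protein-coding gene within 50 kb. Its regions 2 and 3 lay inside the gene and outside the exons, region 4 was the promoter-class region at the upper-coordinate end of the gene, and regions 1 and 5 flanked the gene. The RefSeq promoter table had no entry for Eya1, so its start site is taken here from that promoter class.

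Region 2 of Eya1 (chr1:14217690-14219288), within the gene 49.5 kb above its lower-coordinate end, had 14.7, 17.2 and 19.6 CPM in E14.5 replicates 1, 2 and 3. At P0 it had 6.14, 6.05 and 6.87 CPM. The P0 libraries were close together and lay below every E14.5 library. The means were 17.2 ± 2.45 and 6.35 ± 0.446 CPM (SD over 3 litters per stage), and the log2 fold change was -1.43 with a 95% interval of -1.92 to -0.93 (adjusted p = 0.00370, edgeR). The adjusted p stayed under the threshold in all 14 alternative fits, from 1.93e-05 to 0.0400. No motif match was listed by the table in this region.

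Region 5 of Eya1 (chr1:14356027-14358133), an intergenic region 46.0 kb beyond the promoter-class end, had 20.3, 23.5 and 30.6 CPM at E14.5 and 11.7, 14.7 and 14.0 CPM at P0. The stages did not overlap here either. The log2 fold change was -0.88 with a 95% interval of -1.34 to -0.43 (adjusted p = 0.0287, edgeR). Without E14.5 replicate 3, the highest library in this region, the adjusted p was 0.1998 and the log2 fold change -0.70. Without P0 replicate 1, the lowest library, they were 0.171 and -0.80. The only motif match listed in it was that of the forkhead factor Foxl2, which the table gave for 3.95% of all regions.

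The other regions of Eya1 did not pass the threshold. Region 1 (chr1:14145807-14147281), 22.4 kb below the gene, had 11.6, 9.81 and 11.2 CPM at E14.5 and 4.48, 9.38 and 6.79 CPM at P0. Its log2 fold change was -0.67 (95% interval -1.29 to -0.06, adjusted p = 0.217, edgeR), and the stages did not overlap. Region 4 (chr1:14309436-14310800), at the promoter, had 19.8, 22.6 and 22.3 CPM at E14.5 and 12.6, 15.9 and 20.4 CPM at P0. P0 replicate 3 reached the range of the E14.5 libraries, and the log2 fold change of -0.40 had an interval of -0.86 to 0.06 (adjusted p = 0.340, edgeR).

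Region 3 of Eya1 (chr1:14244568-14245558), also inside the gene, had its higher levels at P0. It had 8.54, 8.15 and 5.02 CPM at E14.5 and 13.4, 9.53 and 12.95 CPM at P0, so that every P0 library lay above every E14.5 library. The log2 fold change was 0.73 with a 95% interval of 0.15 to 1.31. It did not pass over all regions (adjusted p = 0.152, edgeR), and its adjusted p ran from 0.119 to 0.491 over the alternative fits.

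**Figure D2:**
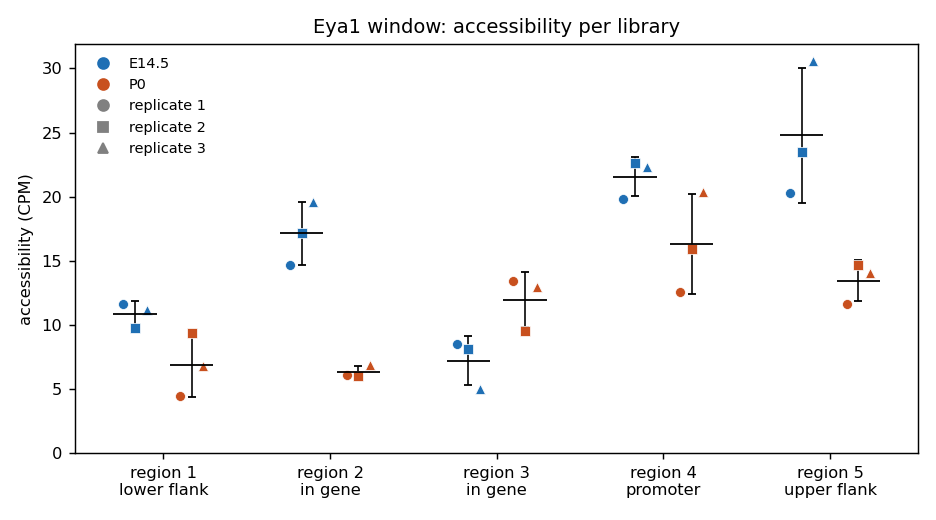
Accessibility in CPM (vertical axis) of the 5 Eya1 regions in each library, with symbols for replicates, black lines for means and bars for the SD (n = 3 per stage). Every P0 library lies below every E14.5 library in regions 1, 2 and 5 and above them in region 3, while the stages overlap in region 4.

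Regions 2 and 3 are neighbours within the gene and can be compared inside each library, where depth and scaling cancel. This ratio was chosen after the values had been seen. The count of region 3 divided by that of region 2 was 0.581, 0.474 and 0.256 in the E14.5 libraries and 2.19, 1.57 and 1.89 in the P0 libraries. Region 2 had the larger count in every E14.5 library and region 3 in every P0 library. Since the pair was picked for moving in opposite directions, this is a description with no test.

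As a share of all counts in the Eya1 window, region 2 went from a mean of 21.0% ± 1.25 in the embryonic libraries to 11.6% ± 0.963 in the newborn ones (SD, n = 3 per stage), and region 3 from 9.03% ± 3.00 to 22.1% ± 5.37. The promoter-class region 4 took 26.5% ± 1.35 and 29.4% ± 3.71, with overlapping libraries. In E14.5 replicate 3, region 3 held 43 of the 760 counts of the window, a share of 5.66% (95% Wilson interval 4.23% to 7.53%). In P0 replicate 1 it held 129 of 464, or 27.8% (23.9% to 32.0%). These were the lowest and the highest library. The nearest libraries of the 2 stages were E14.5 replicate 1 with 11.4% (9.15% to 14.1%) and P0 replicate 2 with 17.2% (13.7% to 21.4%), whose intervals overlapped. Such intervals cover counting error alone. The shares of regions 2, 3 and 5 did not overlap between the stages, and those of regions 1 and 4 did. These shares depend on one another and rest on the same counts as the levels above. They were not computed at all genes, so no background stands beside them.

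**Figure D3:**
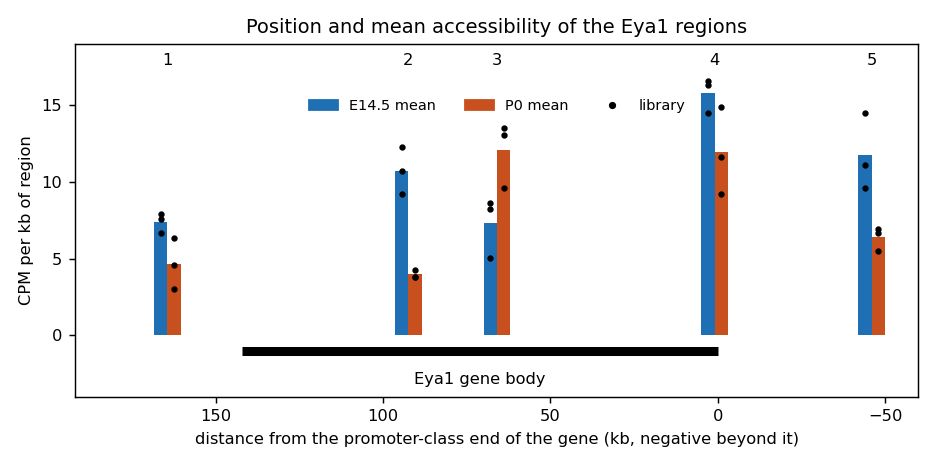
Mean accessibility per kb of region (vertical axis, bars for stage means, dots for libraries) against distance in kb from the promoter-class end of Eya1, with the gene body as a black bar and region numbers on top. Region 2 is higher at E14.5 and region 3, further toward the promoter, is higher at P0.

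Six2, the marker of the progenitor pool, lies on chromosome 17 from 85662736 to 85688254 and is transcribed toward lower coordinates. Region 3 (chr17:85687487-85689520) covered its start site, printed above, together with the start of the long noncoding RNA gene CJ186046Rik. It had 26.8, 31.6 and 29.3 CPM at E14.5 and 32.3, 21.0 and 32.4 CPM at P0. P0 replicate 2 was the lowest library and the other P0 libraries the highest, so the stages overlapped. The log2 fold change was -0.03 with a 95% interval of -0.47 to 0.41 (adjusted p = 0.962, edgeR), and this interval includes changes from 1.38 times lower to 1.33 times higher. The table listed matches for Sall1, Sall4, Pax5 and Maz in it. Sall1 is a zinc finger protein of the progenitor network, and its motif was listed in 19.8% of all promoter-class regions.

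The other Six2 regions had lower CPM, not scaled to their width, and none passed. Region 4 (chr17:85690800-85692221), 3.30 kb upstream of the gene, had 11.3, 16.0 and 9.58 CPM at E14.5 and 22.7, 12.1 and 13.2 CPM at P0. P0 replicate 1 was far above the other libraries, and the log2 fold change of 0.38 had an interval of -0.21 to 0.97. Region 1 (chr17:85645026-85646974), 16.7 kb beyond the other end, had 13.3, 12.96 and 14.8 CPM at E14.5 and 15.3, 9.38 and 11.8 CPM at P0. Its log2 fold change was -0.16, and Sox2 and Sox3 matches were listed in it. Region 2 (chr17:85664284-85665799) lay inside the RefSeq gene body but was intergenic in the table, and had Sall1, Sall4 and Maz matches. Its levels ran from 6.66 to 9.53 CPM and its log2 fold change was 0.10. Region 5 (chr17:85737092-85738126), 49.4 kb upstream, had matches for 6 forkhead factors, levels from 5.60 to 9.37 CPM and a log2 fold change of -0.09. The adjusted p-values of these 4 regions lay between 0.512 and 0.905 in edgeR.

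**Figure D4:**
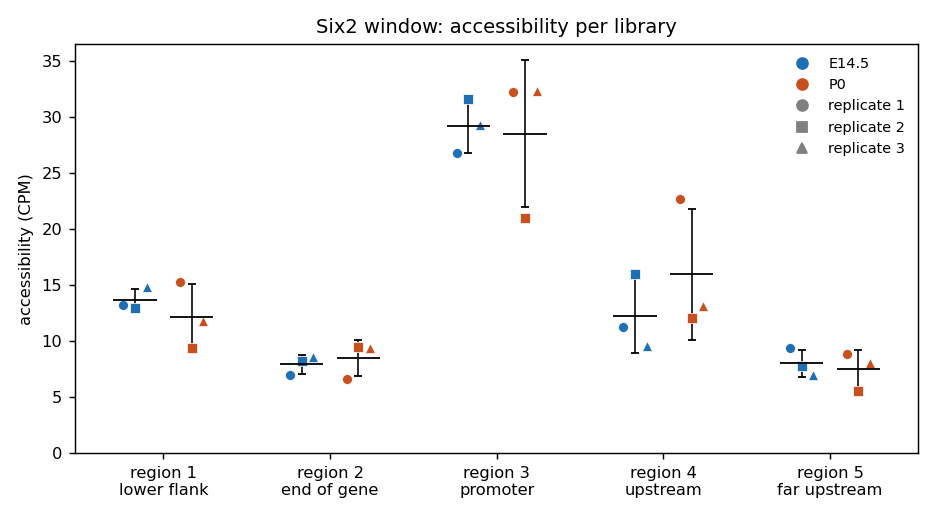
Accessibility in CPM (vertical axis) of the 5 Six2 regions in each library, with symbols for replicates, black lines for means and bars for the SD (n = 3 per stage). The libraries of the 2 stages overlap in every region, and the promoter region 3 has the highest CPM in every library, with no scaling to region width.

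Six4, a relative of Six2 that is expressed in several developing organs, is on chromosome 12 from 73099609 to 73114031. No region of the table overlapped its start site. Region 2 (chr12:73110006-73111129) lay inside the gene, 3.50 kb from its start end, and had 18.0, 16.9 and 8.99 CPM at E14.5 and 22.0, 17.4 and 18.7 CPM at P0. E14.5 replicate 3 was the lowest by far, and the log2 fold change of 0.40 had an interval of -0.13 to 0.94 (adjusted p = 0.426, edgeR). The table listed Meis1 and the AP-1 type motifs Jun, Junb, Jund and Bach2 there. Its level per kb stood at percentile 92.2 of all regions outside the promoter class. Region 3 (chr12:73123266-73124642) covered a start of Mnat1 and had 7.71, 8.67 and 8.17 CPM at E14.5 and 9.16, 8.93 and 9.47 CPM at P0. All P0 libraries were above all E14.5 libraries there, but the log2 fold change was only 0.17 (interval -0.35 to 0.68).

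Six5 on chromosome 7 (19094544 to 19098549) lies next to Dmpk, the gene of the repeat expansion of myotonic dystrophy. All of its 5 regions were in the promoter class, and regions 1 and 4 covered starts of other genes. Regions 2 and 3 began at the same base (19092202, with ends at 19096326 and 19096623), so they share nearly all reads and are in effect a single measurement. Region 3, which covered the Six5 start printed above, had 76.3, 61.7 and 81.6 CPM at E14.5 and 68.1, 50.4 and 85.3 CPM at P0. Its mean over the 6 libraries was the highest of the 26 regions, at 70.6 CPM, next to 69.1 CPM in region 2. The P0 libraries spread over the whole range of the E14.5 libraries, and the log2 fold change was -0.10 (interval -0.58 to 0.38, adjusted p = 0.859, edgeR). Region 1 covered the start of Dmwd and region 4 that of Fbxo46, with log2 fold changes of -0.10 and -0.13. Region 5 (chr7:19130832-19131985), 32.9 kb beyond the gene, had a log2 fold change of -0.31 (interval -0.75 to 0.14), and the most accessible DNA per kb among the 26, with 34.6 CPM per kb.

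Eya2, on chromosome 2 from 165595028 to 165771727, had a single region (chr2:165758523-165761604). It was in the promoter class but lay inside the gene, 11.7 kb from the upper-coordinate end, and no region overlapped either end. It had 12.3, 23.4 and 20.9 CPM at E14.5 and 25.8, 17.4 and 16.4 CPM at P0. The lowest library was of E14.5 and the highest of P0, with a wide spread in both, and the log2 fold change was 0.07 (interval -0.47 to 0.61).

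Eya3, on chromosome 4 from 132639025 to 132724765, is the member of the family with the widest expression. Region 1 (chr4:132638678-132639907) covered its start site and had 17.9, 17.3 and 19.03 CPM at E14.5 and 15.4, 12.1 and 15.4 CPM at P0. All P0 libraries were below all E14.5 libraries, with a log2 fold change of -0.33 that did not pass (interval -0.76 to 0.10, adjusted p = 0.413, edgeR). Matches of 4 E2f factors, which control cell cycle genes, were listed in it. Region 4, at the start of Rpa2, also had no overlap between the stages and a log2 fold change of -0.27 (adjusted p = 0.523). Regions 2 and 3, in the promoter class beyond the end of Eya3, had log2 fold changes of 0.0037 and -0.05.

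Eya4, on chromosome 10 from 23102962 to 23350838, is best known for its role in hearing and the heart. Region 3 (chr10:23348057-23351070), over its start site, had 31.4, 26.3 and 29.4 CPM at E14.5 and 24.8, 27.7 and 34.6 CPM at P0. The stages overlapped fully, with a log2 fold change of 0.0044 and an interval of -0.41 to 0.42. It held 17 listed motif matches, more than any other of the 26 regions, for E2f1, E2f4, Maz, Sall1 and Sall4. Region 1 (chr10:23180651-23182574), inside the gene, had 9.96, 15.9 and 11.6 CPM at E14.5 and 15.0, 17.9 and 15.0 CPM at P0, a log2 fold change of 0.34 (interval -0.15 to 0.83). Region 2, also inside the gene and at 771 bases the narrowest of the 26, had 4.39 to 6.79 CPM, or 6.69 CPM per kb, and a log2 fold change of 0.20 (interval -0.47 to 0.86).

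Levels of different genes were compared per kb of region, over 1 promoter-class region per gene and all 6 libraries. For Six2, Six5, Eya3 and Eya4 this region covered the start site, and for Eya1 it lay at the promoter-class end. Six4 and Eya2 have no place in the order, since no region covered the start of Six4 or either end of Eya2. The order was Six5 (16.0 ± 2.97 CPM per kb), Six2 (14.21 ± 2.17), Eya1 (13.9 ± 2.87), Eya3 (13.2 ± 2.00) and Eya4 (9.64 ± 1.20, SD, n = 6 each). The libraries of the first 4 overlapped one another, and each differed from its neighbour in this order by less than the SD of either. Their order was not the same in both stages: the means at E14.5 were 16.6 for Six5, 15.8 for Eya1, 14.7 for Eya3 and 14.4 for Six2, and at P0 they were 15.4 for Six5, 14.0 for Six2, 11.9 for Eya1 and 11.6 for Eya3, in CPM per kb. The highest Eya4 library had 11.5 CPM per kb and the lowest Eya3 library 9.84, so these neighbours also overlapped. The promoter-class region inside Eya2 had 6.29 ± 1.60 CPM per kb (SD, n = 6), and that of Six4 at the start of Mnat1 had a mean of 6.31. Among all promoter-class regions the Six2 region stood at percentile 56.0 and the Eya2 region at percentile 4.41.

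**Figure D5:**
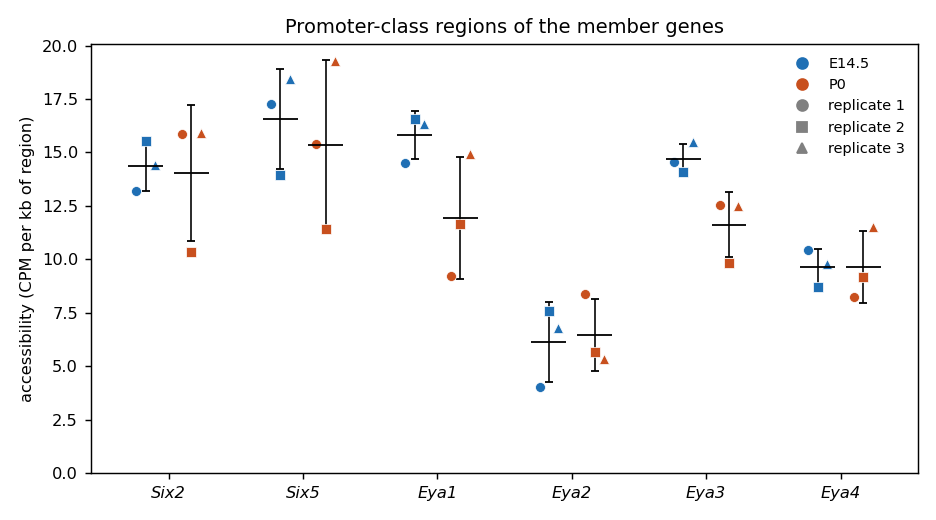
Accessibility per kb of region (vertical axis) of 1 promoter-class region for each of 6 genes, by library, with symbols for replicates, black lines for means and bars for the SD (n = 3 per stage). Six2, Six5, Eya1 and Eya3 overlap one another, and the Eya2 region, which covers neither end of the gene, has 4.00 to 8.38 CPM per kb.

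Summed over its window, Eya1 had 75.0, 81.2 and 88.8 CPM at E14.5 and 48.3, 55.5 and 61.0 CPM at P0. All P0 sums were below all E14.5 sums, with means of 81.6 ± 6.90 and 54.96 ± 6.37 CPM (SD, n = 3 each) and an exact two-sided permutation p of 0.1, the smallest this design allows. The Eya3 window also did not overlap, with 61.8 ± 1.87 and 54.4 ± 3.70 CPM (SD, n = 3 each, exact permutation p = 0.1). In the Six2 window the sums were 67.7, 76.6 and 69.4 CPM at E14.5 and 85.8, 57.7 and 74.8 CPM at P0 (exact permutation p = 1). The sums of Six4, Six5, Eya2 and Eya4 overlapped too, with exact permutation p-values of 0.3, 0.6, 0.9 and 0.4. These are 7 comparisons, none of which can fall under 0.1. The share of all genes whose window sums do not overlap was not computed. For single regions the share without overlap was 24.2%.

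Across the 6 libraries, the 10 pairs of Eya1 regions had Pearson correlations in log2(CPM + 1) from 0.73 to 0.96 among regions 1, 2, 4 and 5, and from -0.95 to -0.64 between region 3 and each of the others. Regions 2 and 3 had -0.84. These are descriptions over 6 points that share their 2 stages and library depths. Among the promoters of 11671 genes, those whose levels over the 6 libraries were most like the Six2 promoter belonged to Snx3, Cdc6, Cldn12, Dse and Dusp22, with correlations from 0.988 to 0.995. For the Eya1 promoter, compared with those of 11673 genes, they belonged to Bdp1, Trak1, Ddx21, Akr1a1 and Mtx3, with 0.976 to 0.989. These are the highest of many correlations over 6 points and serve as a description only.

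Other genes of the network were taken from a list of 16, among them Pax8, Dach1, Sall1, Osr1, Wt1, Gdnf and Itga8. Within 50 kb of 14 of them lay 49 regions, 2 of which, near Six3, are regions 1 and 2 of Six2 and already counted above. Of the 49, 1 rose and 1 fell at P0, or 4.08% against the 4.73% of all regions. Their median log2 fold change was 0.09. The region that rose was an intergenic region near Pax8 (chr2:24416364-24418243), a gene of early nephron epithelium. It had 13.1, 11.6 and 12.96 CPM at E14.5 and 22.9, 22.2 and 28.6 CPM at P0 (log2 fold change 0.98, adjusted p = 0.0126, edgeR). The region that fell was inside Itga8 (chr2:12221390-12222681), the gene of the antigen used to isolate the cells. It had 27.1, 24.8 and 36.5 CPM at E14.5 and 7.50, 11.2 and 16.5 CPM at P0 (log2 fold change -1.31, adjusted p = 0.0120, edgeR). Leaving out E14.5 replicate 3 ended both calls, as did leaving out P0 replicate 1, with 0 of the 49 regions past the threshold in edgeR. At an unadjusted p under 0.05 there were 7 of 49 with all libraries, against 18.7% of all regions, so the count does not stand above that share. Dach1, a nuclear partner of Eya proteins, had 10 regions with log2 fold changes from -0.78 to 0.86 and none past the threshold. The 8 regions of Pax8 ran from -0.25 to 0.98.

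The cell type was checked with the start-site regions of marker genes in the RefSeq promoter table. Of the 8 nephron progenitor markers listed, 4 were in that table (Six2, Cited1, Itga8 and Sall1). All 4 had an open region, with 131 to 138 CPM in sum at E14.5 and 106 to 144 CPM at P0. Osr1, Eya1, Meox1 and Crym were absent from that table and were not checked. Within 50 kb, Meox1 had 0 regions, Osr1 had 2 and Eya1 had 5. Each of the other lists also had markers absent from that table. Stromal markers had an open region for 2 of 3 (Foxd1 and Tbx18), with 58.2 to 69.6 and 46.3 to 60.5 CPM. Endothelial markers had 1 of 4 (Kdr, 19.8 to 29.6 and 22.7 to 31.2 CPM), ureteric markers 2 of 4 (Wnt11 and Gata3, 64.4 to 76.8 and 57.0 to 80.2 CPM) and markers of early nephron epithelium 2 of 4 (Pax8 and Jag1, 94.9 to 107.5 and 88.4 to 123.7 CPM). No listed region covered the start of the immune markers Ptprc, Cd68 and Itgam or of the podocyte marker Nphs1. The sums cover different numbers of genes, so they do not rank the cell types. The sums of the stages overlapped in each list with regions, and the part of other cells in the Eya1 result was not tested.

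In the authors' deposited table, region 2 of Eya1 was the only one of the 26 classed as changed, as closing, with a log2 fold change of -1.35 and an adjusted p-value of 0.0462. Of all regions, 5.34% had such a class. Region 5 of Eya1 had a log2 fold change of -0.82 and an adjusted p-value of 0.108 in the authors' deposited table, and was classed as stable. For region 3 of Eya1 the authors' deposited table gave 0.82 and 0.156, and for the Six2 promoter region 0.04 and 0.942.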

How the data were processed

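ATAC-seq of Itga8-selected cells gave, in the table the authors deposited, a whole-number count per region and library, per the file headers. The build was mm10 per the submitters' processing notes. The aligner, peak caller, counting rule, Tn5 shift and removal of duplicate reads are not given in the sources used here. The deposited log2 fold change and adjusted p-value come from the authors' own model, not described per the file headers. Stages and replicates were taken from the source names. Of 45489 rows, 1966 repeated a region and were dropped. An item in the Six4 window is not reported here, and its region stays in the counts, the sums and the plot of fold changes. The members and lists were chosen with earlier results of these data known.

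Counts of all 43523 regions were fitted with edgeR 4.0.16 in R 4.3.3 (TMM, filterByExpr, which removed 0 regions, stage as the only term). The SE was the fold change over the square root of F, and intervals are 95%. The fit was tested on simulated counts of 43523 regions, where it called 63 of 200 regions changed 2-fold, with 9 false calls, so a change of that size can be missed. The 200 changed regions are a smaller share than the 4.73% called in the data. The recovery and the rate of false calls therefore need not be the same in the data. Gene spans and promoters are from RefSeq. Window sums leave out the shorter of overlapping regions. Named were called regions, start-site regions, the most accessible region per gene and the 5 largest changes of each sign. Other regions of the 26 were added after their values were seen. Alternatives were DESeq2 1.42.0 size factors and Wald test, limma-voom 3.58.1, total-count scaling, other filters, windows of 10 and 100 kb, a threshold of 0.1 and leaving out each library. Library pairs within a stage differed by more than sampling noise (chi-square over degrees of freedom, 5.33 to 17.7), so none was treated as a repeat deposit of another. This says nothing of their independence, which rests on the labels. All tests are two-sided. Scripts used Python 3.11.15 with scipy 1.17.1.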

Additional observations from a re-analysis of the deposited data

How the results depend on the processing

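The number of changed regions at the 7 genes (2 of 26) was the same under the other scalings, tests and filters, any overlap with the window, a window of 100 kb and a threshold of 0.1. The looser overlap rule, window and threshold could only add regions. The fit without a filter, counted among the 14 alternatives, repeats the main fit, since filterByExpr removed 0 regions. With a window of 10 kb the number was 1, since region 5 of Eya1 lies outside that window. Across the 6 fits that each left out a library it ran from 1 to 2, with 1 when E14.5 replicate 3 or P0 replicate 1 was left out, where 0.779% and 1.09% of all regions passed. At the 16 network genes the count was 2, and 0 to 3 in those 6 fits. With the replicate number as a block, 2 regions passed at the 7 genes and 2 at the network genes. Libraries that share a number did not deviate together (correlations of 0.067, -0.143 and 0.074 for numbers 1, 2 and 3), and E14.5 replicate 1 correlated best with P0 replicate 2. No pairing by number was seen, but weak correlations over 3 libraries per stage cannot exclude one. With a window of 10 kb the difference in summed CPM (P0 minus E14.5) was -11.4 at Eya1 and -3.69 at Eya3, as fewer regions were summed. The Six2 sum was negative when E14.5 replicate 1 (-0.239 CPM) or P0 replicate 1 (-5.00 CPM) was left out, and so was the Eya2 sum (-2.26 and -1.96 CPM). Of the 26 regions, 13, all uncalled and with log2 fold changes of at most 0.20 in size, changed sign in at least 1 of the 14 alternative fits. With total-count scaling the median over all regions shifted by 0.057 (log2). Standard errors of 0.20 to 0.31 outside Eya1 limit what 3 litters per stage can show.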

Other observations

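Outside the 50 kb rule, the wider window of 100 kb added 9 regions at these genes, none of them past the threshold. The Six2 gene is known to be controlled by distal enhancers upstream of it, and 1 of the 9 regions (chr17:85747629-85749855) was intergenic and 60.5 kb upstream of Six2. It was chosen for description after its values were seen. It had 21.1, 33.0 and 23.2 CPM at E14.5 and 36.2, 29.4 and 40.5 CPM at P0. E14.5 replicate 2 lay above P0 replicate 2, so the stages overlapped, and the log2 fold change was 0.46 (95% interval -0.01 to 0.92, adjusted p = 0.274, edgeR). Its level per kb stood at percentile 89.96 of all regions outside the promoter class, above every region of the Six2 window that was not a promoter. The table listed no motif match in it.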
